A study of Saccharomyces cerevisiae with 12 samples.

Results

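The genes described here are 37 budding yeast ORFs that encode the machinery of DNA replication and of sister chromatid cohesion. They were chosen by ORF name from the 6174 ORFs of the table, and the rule uses no measured value. By role they are the replicative helicase and origin factors (9 ORFs), the DNA polymerases and primase (6), the sliding clamp and its loaders (7), the single-strand binding protein RPA (3), nucleotide supply (4), the joining of Okazaki fragments (2), mismatch repair and recombination (3) and cohesin (3). All 37 matched a symbol in the gene table used for names. None lies on chromosome IX, whose ORFs were lower as a whole in the HCM1 deletion strain (median log2 ratio of -0.92).

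In each cell cycle, yeast loads a ring of MCM proteins at origins in G1, activates it in S phase with Cdc45, and copies the unwound strands with DNA polymerases held by a clamp that the RFC complex loads. Cohesin is built around the sister chromatids during the same phase. Many of these genes are transcribed in late G1 under the factor MBF, before the S phase in which the forkhead factor Hcm1 acts, while MCM genes also peak at the M/G1 boundary.

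The study measured RNA on 12 2-colour arrays, 2 with swapped dyes for each of 6 comparisons, in cells grown in YPD at 30 °C. The strains compared were MJRC05, in which natMX4 replaces HCM1; MJRC07, with HCM1-3HA behind the tetO7 promoter and kanMX4; GRB2405, with HCM1-3HA behind its own promoter and natMX4; and their MATa parent CML128, the wild type here. CML128 is mutant in URA3, HIS4, LEU2 and TRP1, so every strain carries those mutations, and MJRC07, made from GRB2405, also carries its tag and natMX4. HCM1 was altered in 3 comparisons: MJRC05 over CML128 (the deletion), MJRC07 over GRB2405 (tet over tagged), and MJRC07 kept free of doxycycline over MJRC07 given it for 10 h, which shuts the promoter off (drug-free over drug-treated). The 3 controls were GRB2405 after 4 h of doxycycline and GRB2405 after 10 h, each over untreated GRB2405, and GRB2405 over CML128 (tagged over wild type). Each genotype is 1 named strain, and the drug's dose is not given in the sources used here.

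The values are log2 ratios, so they carry no expression level, and markers of mating type could show a difference between 2 RNAs but not which type the cells were. The 2 arrays of a comparison, Exp 1 and Exp 2, were counted as 1 replicate, because the study's design text describes the dye swap as made per RNA sample, and an SD below is the spread of 2 arrays (n = 2), which may be technical. In a bulk RNA ratio, fewer cells in S phase and less RNA per cell cannot be told apart. The arrays held 2520 to 6174 ORFs and 7 to 37 of the replication and cohesion genes. The pair of columns for tagged over wild type mirrored each other (r = -0.999), so that comparison rests on 1 array of unsettled sign, and only sizes are given for it. HCM1 itself followed its labels. It stood at -3.55 and -3.18 on the 2 arrays of the deletion, at 5.31 and 5.02 in tet over tagged, and at 5.79 and 5.51 in drug-free over drug-treated. In the tagged strain, 10 h of doxycycline put it at 1.37 and 0.68.

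The replication and cohesion genes included more lower genes in the tet strain, drug-free over drug-treated, than in the other 2 comparisons with altered HCM1. MCM3, MCM2, RFC3, POL12, DPB2, PRI2, RFA2, RNR1 and MCD1 were among the genes lower in the drug-free cells, in which HCM1 was high, by 1.68-fold (RNR1) to 3.61-fold (MCM3) in the mean. Of the 33 replication and cohesion genes measured on both arrays, 10 were at least 1.5-fold lower on both (30.3%), whereas 8.24% of all 4307 ORFs were. None was at least 1.5-fold higher on both arrays, a size that 8.34% of all ORFs reached. The median of the 33 genes was -0.24, against a median of 0.00 for all ORFs, the Exp 1 array giving -0.41 and the Exp 2 array -0.08. On the Exp 2 array alone that median was about as near to 0 as the one in the deletion (-0.09). At 2-fold on both arrays, MCM3 and RFC3 remained, beside 2.16% of all ORFs. Means ran from -1.85 (MCM3) to 0.62 (CTF18). Of the 33 genes, 19 were below 0 on both arrays, 8 above 0 on both and 6 on opposite sides. Among all 4307 ORFs, 37.94% were below 0 on both arrays and 37.03% above 0 on both.

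**Figure D1:**
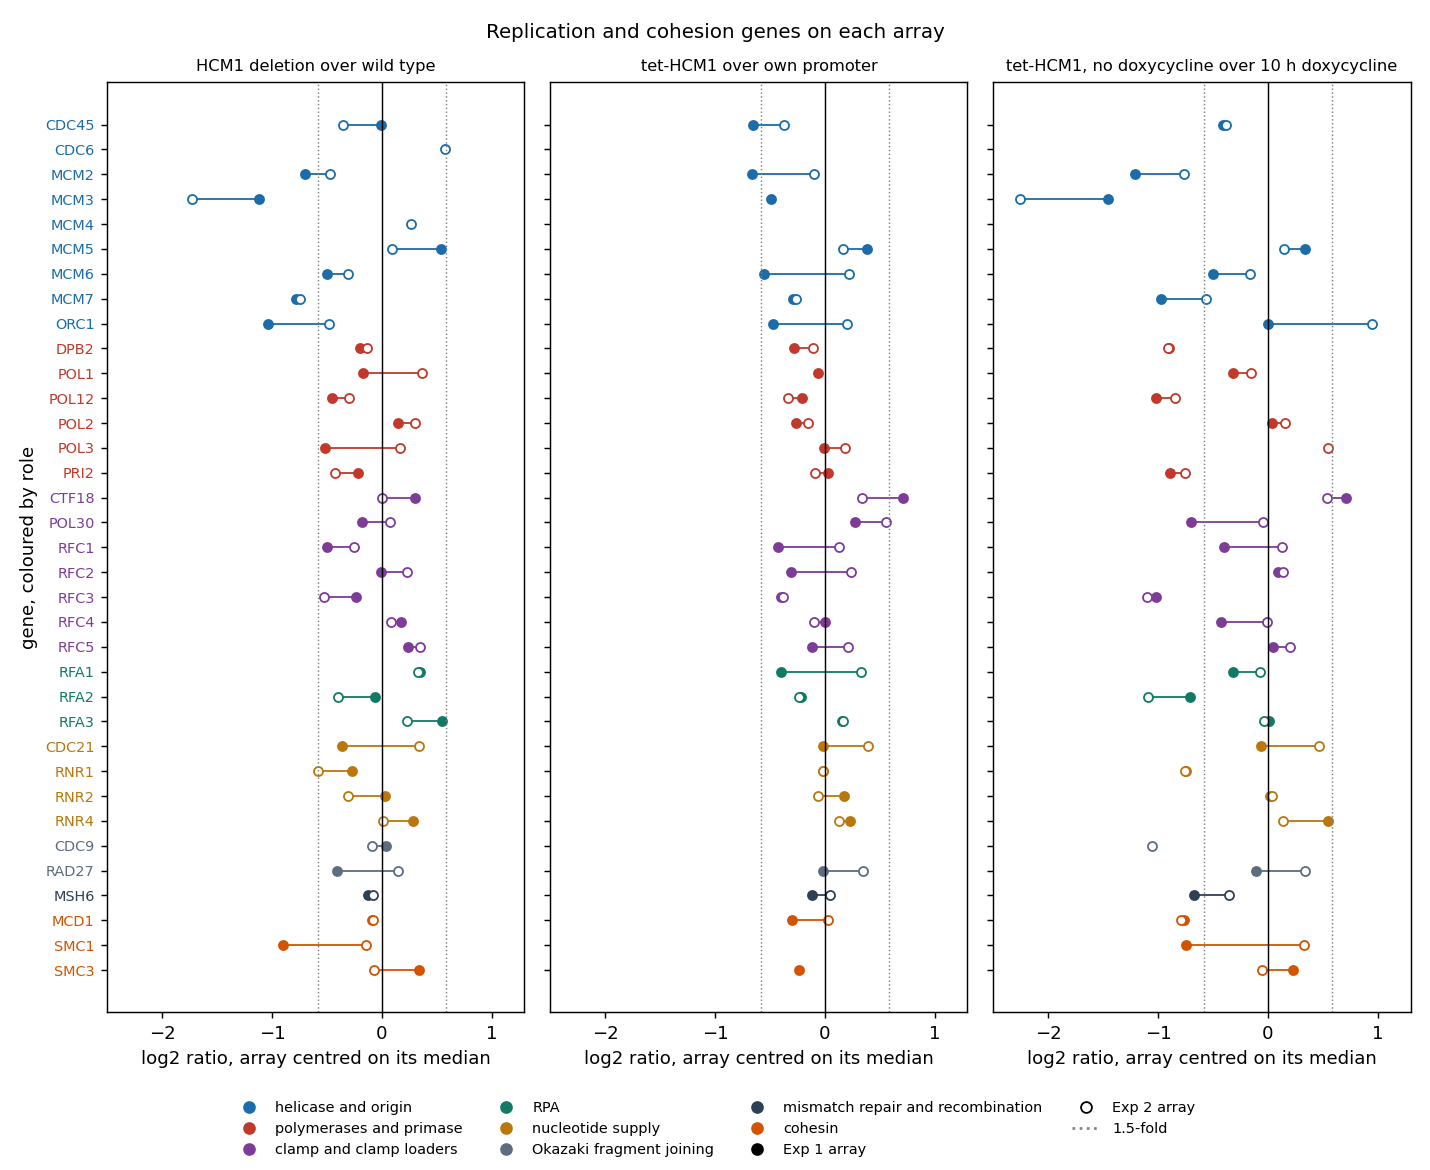
Log2 ratio of 35 of the 37 replication and cohesion genes (rows, coloured by role) on the Exp 1 array (filled) and the Exp 2 array (open), for the 3 comparisons in which HCM1 was altered; dotted lines mark 1.5-fold. In the right panel 9 of the genes drawn have both points left of the dotted line, against 2 in the left panel and 0 in the middle one.

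The helicase ring showed the widest spread between partners. MCM3 (YEL032W) had the lowest value of all the genes, at -1.45 and -2.25 in drug-free over drug-treated, a mean of -1.85 ± 0.57 or 3.61-fold lower. Within the ring, MCM2 (YBL023C) was next, at -1.21 and -0.76 (-0.98 ± 0.32, 1.98-fold lower). MCM7 stood at -0.97 and -0.56, and the Exp 2 array kept it just short of 1.5-fold. MCM6 was nearer to 0, at -0.50 and -0.16. These 4 subunit genes were thus below 0 on every array. MCM5 was on the other side, at 0.34 and 0.14. The arrays of MCM3 and MCM5 thus did not overlap, although their products sit side by side in the same ring. MCM4 and CDC6, which loads the ring, had a value on 1 array of the deletion alone (0.27 and 0.57) and could not be described further. CDC45, whose product joins the ring to form the active helicase, stood at -0.41 and -0.38, and ORC1, of the complex that marks origins, at 0.00 and 0.95.

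Among the polymerases, POL12, PRI2 and DPB2 were at least 1.5-fold lower on both arrays. POL12 (YBL035C), the B subunit of the polymerase alpha-primase complex that starts each strand, stood at -1.02 and -0.84 (-0.93 ± 0.12), and PRI2, the large primase subunit, at -0.89 and -0.75. POL1, the catalytic subunit of that complex, stood at -0.32 and -0.15, above both of these genes on both arrays. In polymerase epsilon, the leading-strand enzyme, the subunit gene DPB2 stood at -0.90 on each array (-0.90 ± 0.01) and the catalytic gene POL2 at 0.03 and 0.16. The small subunit genes of that enzyme, which are not among the 37, lay above POL2, DPB4 at 0.16 and 1.12 and DPB3 at 0.23 on its 1 array. POL3, of polymerase delta, had a value on 1 array, 0.55. Of its partners, which are not among the 37, POL31 stood at -0.74 and -0.78 and POL32 at -0.06 and 0.70. PRI1, the primase partner of PRI2 and also not among the 37, stood at -0.67 and -0.41.

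The clamp loader and RPA also held 1 low gene each. RFC3 (YNL290W) stood at -1.01 and -1.10, a mean of -1.06 ± 0.06 or 2.08-fold lower. The means of the other 4 genes of the loader lay between -0.22 (RFC4) and 0.13 (RFC5), and all their arrays were above both arrays of RFC3. CTF18, which replaces RFC1 in a loader needed for cohesion, was the highest of all the genes, at 0.71 and 0.54. POL30, the clamp itself, had arrays of -0.70 and -0.05. RFA2, the middle subunit of RPA, stood at -0.71 and -1.09 (-0.90 ± 0.27), while RFA1 (-0.32 and -0.08) and RFA3 (0.01 and -0.03) lay above it.

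Ribonucleotide reductase, which makes deoxynucleotides, split by subunit. RNR1, the large subunit with a late G1 peak, stood at -0.75 and -0.76 (-0.75 ± 0.01). The small subunit genes RNR2 (0.02 and 0.04) and RNR4 (0.55 and 0.14) were above 0 on both arrays. CDC21, for thymidylate synthase, stood at -0.06 and 0.47. MSH6, of mismatch repair, was below 0 on both arrays, at -0.67 and -0.35. In cohesin, MCD1, the kleisin that closes the ring and is made anew each cycle, stood at -0.76 and -0.79 (-0.78 ± 0.03). Of the long coiled-coil subunits, SMC3 lay above it, at 0.23 and -0.05, while SMC1 was level with it on the Exp 1 array and above it on the Exp 2 array (-0.74 and 0.33). The DNA ligase gene CDC9 had 1 array, at -1.05, and the flap nuclease gene RAD27 stood at -0.11 and 0.34.

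The controls hold little on doxycycline itself for these 10 genes. None of the 10 had both arrays of either doxycycline control. In GRB2405 after 4 h of the drug, the single array with a value gave -1.29 for MCM3, -0.68 for RFA2, -0.17 for RNR1 and -0.03 for PRI2. After 10 h, RNR1 had 1 array, at 1.35. In drug-free over drug-treated the drug was present in the denominator alone, and its part in the values of these genes was not tested.

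**Figure D2:**
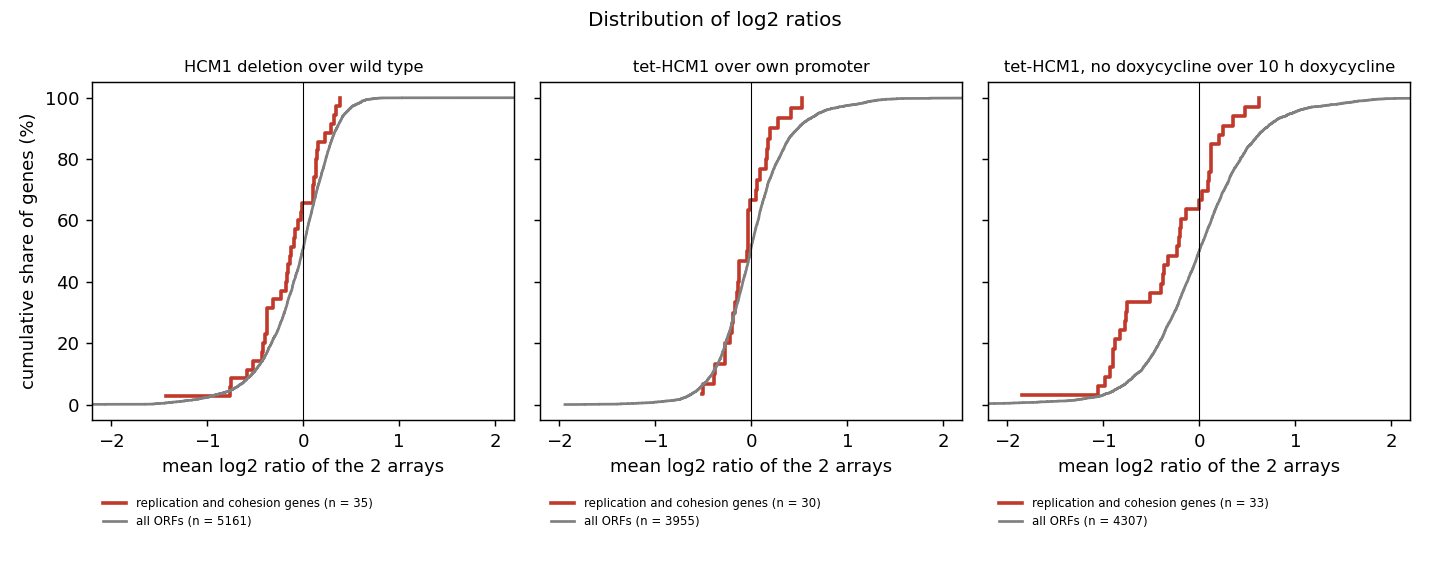
Cumulative share of genes (%) by mean log2 ratio of 2 arrays, for the replication and cohesion genes (red) and for all ORFs (grey) in the 3 comparisons in which HCM1 was altered. The red curve lies left of the grey one in the right panel, with medians of -0.24 and 0.00, and closer to it in the others.

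In the deletion over wild type, 35 of the genes were measured on both arrays and their median was -0.13, against -0.01 for all ORFs; the arrays gave -0.17 and -0.09. At 2-fold, MCM3 alone was lower on both arrays, beside 1.53% of all ORFs. MCM3, at -1.12 and -1.73 (-1.43 ± 0.43, 2.69-fold lower), and MCM7, at -0.78 and -0.74 (-0.76 ± 0.02), were the 2 genes at least 1.5-fold lower on both arrays. That is 5.71% of the genes, beside 5.54% of all 5161 ORFs, so the count was near that share. The shares of all ORFs given for the deletion include chromosome IX, which was lower as a whole and holds none of these genes. Shares outside chromosome IX were not counted, so the count is not placed against them. On the Exp 1 array alone 5 genes were past 1.5-fold, and on the Exp 2 array alone 2. The shares of all ORFs on single arrays were not counted, so these counts have no background. None of the genes was 1.5-fold higher on both arrays, a size reached by 0.213% of all ORFs. MCM2 stood at -0.70 and -0.47 and ORC1 at -1.03 and -0.48, in each case with 1 array short of 1.5-fold. MCM5 was above 0 again, at 0.54 and 0.09.

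The 10 genes that were lower in the drug-free tet strain were all below 0 on both arrays of the deletion, from -0.09 (MCD1) to -1.43 (MCM3), with a median of -0.38. Of the other 25 genes measured there, 7 were below 0 on both arrays and the median was -0.01, while 35.8% of all ORFs were below 0 on both. That share is of unselected ORFs, whereas the 10 genes were picked on values of a comparison that correlates with the deletion. The share among the 355 ORFs that pass the same rule was not counted, so the 10 genes are not set apart from those. HCM1 went opposite ways in these comparisons, which by their labels share no strain. Across the 33 genes with both values the Pearson correlation was 0.65 (Spearman 0.60), and 0.50 without MCM3. Across all 4271 ORFs it was 0.40. Genes of the same array platform share probe, dye and length effects, so these coefficients are given as a description. In number, 17 genes were lower in both comparisons and 7 higher in both, while 4 were lower in the deletion alone and 5 lower in the drug-free tet strain alone, ORC1 (-0.75 and 0.48) being furthest apart. The same counts were not made over all ORFs, so they are not read as a trait of these genes.

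**Figure D3:**
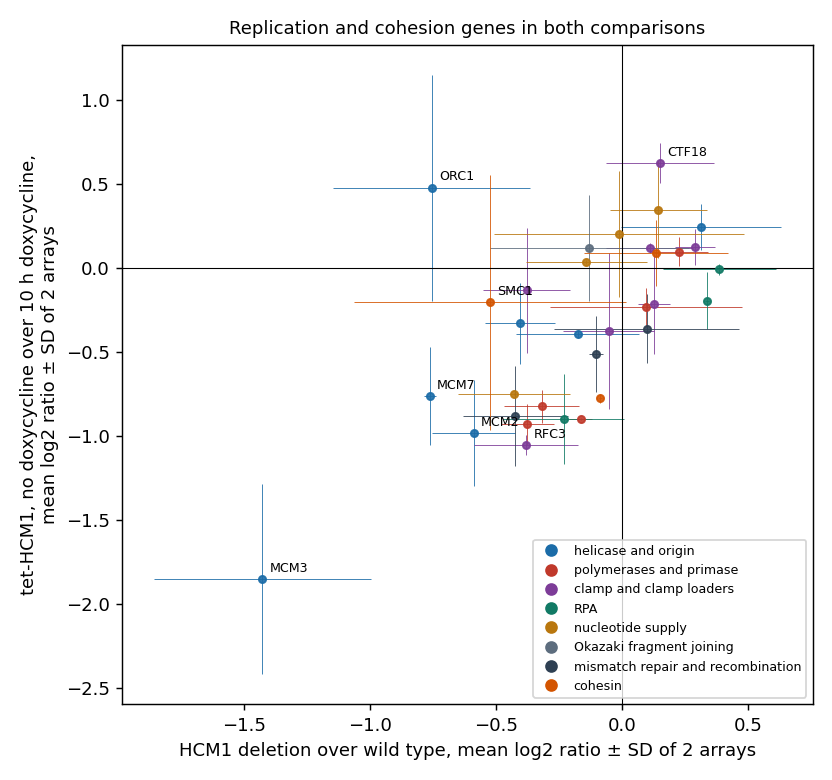
Mean log2 ratio ± SD of 2 arrays for 33 replication and cohesion genes in the tet strain, drug-free over drug-treated (vertical axis) and in the deletion over wild type (horizontal axis), coloured by role. MCM3 is lowest in both, CTF18 is highest on the vertical axis, and ORC1 lies at -0.75 on the horizontal axis and 0.48 on the vertical one.

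In tet over tagged, 0 of 30 genes were 1.5-fold lower on both arrays and 0 were 1.5-fold higher, where 2.07% and 4.88% of all 3955 ORFs were. The median was -0.04 (Exp 1 array -0.16, Exp 2 array 0.04), and 14 of the 30 genes had arrays on opposite sides of 0. Another 11 were below 0 on both arrays and 5 above 0 on both, where 33.8% and 32.4% of all ORFs were. CDC45 had the lowest mean, at -0.66 and -0.37 on the arrays, and RFC3 was low as well (-0.40 and -0.38). CTF18 was highest, at 0.71 and 0.34, with POL30 next, at 0.28 and 0.55. This comparison has the drug-free tet strain as its numerator, as does drug-free over drug-treated, so the values of both are only set side by side. POL12 had a mean of -0.27 in tet over tagged and -0.93 in drug-free over drug-treated, DPB2 had -0.19 and -0.90, RFA2 -0.22 and -0.90, MCD1 -0.13 and -0.78, and RNR1 -0.02 and -0.75. The first of each pair was the nearer to 0, but these genes were picked for low values in drug-free over drug-treated. A value nearer to 0 elsewhere can follow from that choice alone, so it is not read as a result.

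**Figure D4:**
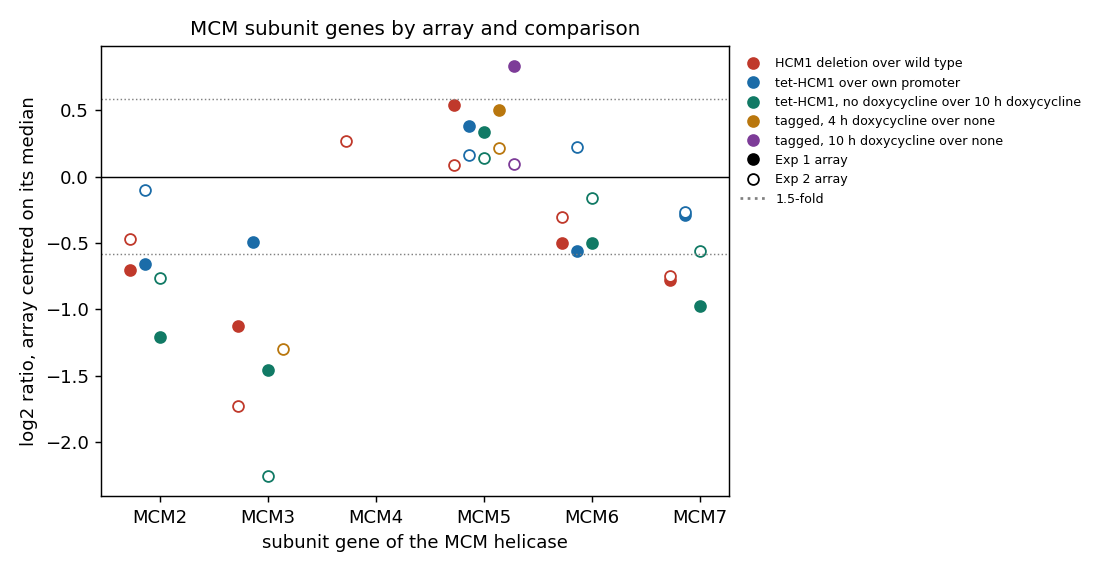
Log2 ratio of the 6 MCM subunit genes (horizontal axis) on every array of the 5 dye-swapped comparisons (colours); filled points are Exp 1 arrays, open points Exp 2 arrays, and dotted lines mark 1.5-fold. MCM3 is below 0 on 6 of 6 arrays, and MCM5 above 0 on 10 of 10. The share of all ORFs that keep 1 sign on every array was not counted.

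Over all arrays with a settled sign that measured it, MCM3 was below 0 on 6 of 6, from -2.25 to -0.49, including the single array of GRB2405 after 4 h of doxycycline (-1.29). MCM5 was above 0 on 10 of 10, from 0.09 to 0.83. Both directions were the same in the deletion, where HCM1 was low in the numerator, and in the tet comparisons, where it was high. The share of all ORFs that keep 1 sign on every array was not counted. These arrays are dye-swapped pairs and some share a strain, so they are not independent. The signs are therefore not read as a trait of these genes.

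The controls measured few of the genes on both arrays. After 4 h of doxycycline, 6 had both arrays, and 0 of them were 1.5-fold lower or higher, where 5.13% and 5.09% of all ORFs were. Their highest mean was 0.36 (MCM5). After 10 h, 7 had both arrays, again with 0 past 1.5-fold in either direction, where 12.2% and 10.3% of all ORFs were, and their means lay between -0.25 (RNR4) and 0.47 (MCM5). In tagged over wild type, the median size of the log2 ratio was 0.27 over 26 genes and 0.25 over all 3317 ORFs of that column. There 2 genes were at least 1.5-fold from 0, MCM2 (0.67) the further (7.69%, beside 5.97% of all ORFs). MCM2 had a mean of -0.59 in the deletion, a size below that of this control. That single array is not averaged with a swapped one, so any dye effect stays in it. With its sign as given, it correlated with the mean difference between Exp 1 and Exp 2 arrays of the other comparisons. The coefficient was r = 0.46 across 3316 ORFs and 0.36 across the 26 genes, and its cause was not tested.

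A test was possible for 8 genes in each comparison with altered HCM1 (RFA1, RNR2, RNR4, RFC2, MCM5, CTF18 and POL2 among them), those with a usable value in at least 2 control comparisons, which supplied the residual. A doxycycline control counted only with both its arrays, so genes such as RNR1 and RFA2, with 1 array there, were left out. None of the 8 passed in any of the 3 (limma, Benjamini-Hochberg adjusted p below 0.05 over all ORFs); the lowest adjusted p was 0.692, for CTF18 in drug-free over drug-treated. HCM1 itself did not pass either, with limma adjusted p-values of 1, 0.11 and 0.0647 at means of -3.36, 5.17 and 5.65, so a miss in this fit says little about a gene. Over all ORFs 0 of 2538, 0 of 2435 and 0 of 2480 passed (0.0% each), with 26, 113 and 225 at an unadjusted p below 0.05, in the order deletion, tet over tagged, drug-free over drug-treated. In the doxycycline controls of 4 h and 10 h, 4 genes could be tested and 0 passed, where 0.0% and 7.54% of all ORFs did. The 10 lower genes were not among those that could be tested, so their values rest on size and on the 2 arrays.

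With each array as its own value and the dye orientation as a block, the residual is the spread of dye-swapped arrays, and p then says nothing of other cultures. In that limma fit, 14 of 33 genes passed as lower in drug-free over drug-treated, MCM3 with the lowest adjusted p (7.06e-05), and 3 as higher (CTF18, RNR4 and ORC1), where 24.0% and 23.7% of all ORFs passed in these directions. The 14 were the 10 genes above with MCM7, MSH6, CDC45 and POL30. In the deletion 7 of 34 passed as lower (MCM2, MCM3, MCM7, ORC1, RNR1 and SMC1 among them) and 0 as higher, beside 13.1% and 6.85% of all ORFs. In tet over tagged 2 passed as lower (CDC45 among them) and 2 as higher (CTF18 and POL30), beside 9.57% and 12.1%. In GRB2405 with doxycycline, MCM5 and RNR4 of 6 passed as higher at 4 h and MCM5 of 7 at 10 h, beside 23.5% and 29.7%, and 0 passed as lower, beside 17.1% and 28.5%.

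Other genes of the same pathways were followed as lists. Of 40 further replication genes, 30 were measured in drug-free over drug-treated; 6 were at least 1.5-fold lower on both arrays and 0 higher, beside 8.24% and 8.34% of all ORFs, and the median was -0.20. SPT16, a histone chaperone subunit that travels with the fork, was the lowest of the list, at -3.17 and -4.22, and was low in the other comparisons too, at -1.39 and -1.60 in tet over tagged, -0.84 and -1.90 in the deletion, and -2.49 on 1 array after 4 h of doxycycline. MGS1, an ATPase of replication forks, stood at -1.20 and -1.25. In the deletion, 3 of 35 were lower, beside 5.54% of all ORFs, 1 of them PRI1 on chromosome IX (-1.16 and -1.15). In tet over tagged 1 of 25, SPT16, was lower, beside 2.07%. Of 19 further cohesion and condensin genes, 0 of 8 measured were lower in drug-free over drug-treated, beside the same 8.24%, and the median was 0.04. Of 17 further mismatch repair and recombination genes, 1 of 11 was lower and 3 were higher, MLH2 furthest at 1.46 and 1.09, beside 8.24% and 8.34%.

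Markers of DNA damage and of cell cycle phase were set beside these values. HUG1, which damage and blocked forks induce, stood at -1.08 and -1.29 in drug-free over drug-treated. It was the 1 of 9 damage and checkpoint genes at least 1.5-fold lower on both arrays, beside 8.24% of all ORFs, and 0 were higher. The 9 genes had no common direction, with a median of -0.03 and 5 below 0. DIN7 of the same list stood at 0.58 and 0.24. Late G1 genes had a median of -0.37 there, with 5 of 6 below 0, where 50.1% of all ORFs were, and CLN2 at -0.62 and -0.33. Of these 6, 0 were at least 1.5-fold lower on both arrays. The 8 histone genes, which are made in S phase, had a median of 0.37 with 2 at least 1.5-fold higher on both arrays, beside 8.34% of all ORFs. The 7 G2/M genes had a median of 0.32, and the 5 M/G1 genes measured a median of 0.22. The G2/M genes went both ways: the mitotic cyclin gene CLB1 stood at 1.64 and 1.99, while its sister gene CLB2 stood at -1.02 and -0.94 and SWI5, a transcription factor gene, at -0.43 and -0.48. In the deletion the late G1 median was 0.04, the histone median 0.26 and the G2/M median 0.02. In GRB2405 after 10 h of doxycycline CLN2 stood at 1.02 and 1.32. The part of cell cycle phase in the replication gene values was not tested. Of the 6 genes specific to a cells, 3 were measured in drug-free over drug-treated, with a median of -0.09, and 1 of the 4 alpha-specific genes, at -0.12.

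Longer ORFs tended to lower ratios. Across all ORFs the Spearman coefficient of log2 ratio with coding length was -0.27 in the deletion, -0.21 in tet over tagged and -0.24 in drug-free over drug-treated. Across the replication and cohesion genes it was -0.33, -0.32 and -0.10. With a linear trend on length removed from each array, 9 of the 33 genes were 1.5-fold lower on both arrays in drug-free over drug-treated, against 10 before. The share of all ORFs with that trend removed was not counted.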

How the data were processed

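The deposited values are log2 ratios per ORF that the authors had normalized; the method is not given in the sources used here. Per the labels, the dyes of each array give the first-named RNA of each comparison in the report as numerator, in both orientations. Base 2 was inferred: taken as powers of 2, all values of 11 columns (100%) sit on whole steps of the linear ratio, but 12.5% do in the Exp 1 column of tagged over wild type, whose base rests on its mirror. Each array was centred on its median (between -0.05 and 0.09), and the 2 arrays of a comparison were averaged. The arrays' number limits the precision; signals and background were not used here. Across the 10 pairs of dye-swapped comparisons, deviations of same-numbered arrays correlated at 0.56 to 0.68, and the Exp number was used as the dye block. Whether dye or another feature shared by same-numbered arrays gave this correlation was not tested.

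An ORF counted as lower or higher when both arrays were at least 1.5-fold from 0 on one side. ORFs were tested with limma 3.58.1 (R 4.3.3) on 1 value a comparison, with residuals from the 3 controls, and the script was tested on simulated data. The first tagged column was used alone. Of the ORFs, 5675 matched RefSeq's R64 table for names and coding length. Python 3.11.15 was used. Members and lists were chosen with earlier results of these data known. The rule named any of the 37, with per-array values for those at least 1.5-fold on both arrays and their complex partners, and listed genes at least 2-fold; other per-array values were added. Alternatives covered scaling, ORF filter, fold rule, length, dye, the residual, the unit of the test and single arrays. Promoter motifs were not analysed here, and values of some genes are not reported here.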

Additional observations from a re-analysis of the deposited data

Results flagged for a closer look

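RNR4, the small subunit gene of ribonucleotide reductase, was above 0 on both arrays of GRB2405 treated for 4 h with doxycycline, with a mean of 0.34, and below 0 on both arrays after 10 h, with a mean of -0.25. The difference between the times was not tested, and both comparisons have untreated GRB2405 as denominator.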

How the results depend on the processing

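With 2-fold on both arrays, genes lower in the deletion numbered 1 and those lower in drug-free over drug-treated 2. With 1.5-fold in the mean of both arrays, 4 were lower in the deletion and 1 was higher in drug-free over drug-treated; with arrays scaled to one median absolute deviation 4 were lower in the deletion. With the length trend removed, or with the dye effect of the other comparisons removed (an alternative chosen after seeing the data), 1 was higher in drug-free over drug-treated. The count of 10 lower genes stood between 9 and 11 with values as deposited, scaled, without the length trend, with the dye effect removed and in the mean of both arrays. Shares of all ORFs were counted at 2-fold on both arrays but not under these other settings. Whether the excess over all ORFs held there was not tested.

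Only 4 of the genes had values on all 12 arrays, and none of the 10 lower genes was among them, so this setting cannot check that count. Of those 4, 0 were lower in the deletion or in drug-free over drug-treated. Their medians were 0.0305 in the deletion, 0.11 in tet over tagged, 0.11 in drug-free over drug-treated and -0.0034 after 10 h of doxycycline. The 4 h median was 0.23 with values as deposited, and the 10 h median 0.22 without the length trend. On single arrays, medians ranged from -0.17 to -0.08 in the deletion, from -0.20 to 0.038 in tet over tagged, from -0.41 to -0.08 in drug-free over drug-treated, from -0.11 to 0.16 after 4 h and from 0.079 to 0.24 after 10 h. Lower genes then numbered 2 to 5, 0 to 2, 11 to 14, 0 to 3 and 0 to 1, and higher genes 0 to 0, 0 to 1, 1 to 1, 0 to 1 and 1 to 1, in the same order. The shares of all ORFs past 1.5-fold on single arrays were not counted, so these counts have no background.

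Genes passing limma with the replicate block on dye numbered 7, 4, 17, 2 and 1 in that order, and 2 in the deletion and 12 in drug-free over drug-treated without the block. Under the other settings run (scaling, robust fit, mirrored columns averaged, no tagged control, length, chromosome IX, all 12 arrays, 10 h control added) they numbered 0. Over all ORFs the counts of 0, 0, 0, 0 and 124 became 890, 856, 2049, 1008 and 1343 with the block, 197, 256, 1015, 387 and 867 without it, and 1, 4, 1, 0 and 28 with scaled arrays. With the 10 h control added, 390 passed in drug-free over drug-treated. The 124 of the 10 h control became 76 as deposited, 10 with mirrored columns averaged, 219 on all 12 arrays, 208 with a robust fit and 272 on the Exp 1 array. Without the tagged control the doxycycline comparisons could not be tested, and promoter motifs were not run. The causes of these shifts were not tested, and some settings also held fewer genes or arrays. The few control values limit which genes can be tested.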
